A study of Homo sapiens with 60 samples.

Results

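The report concerns 8 genes of growth-factor and insulin signalling in the HT29 cell line, which was established from a human colorectal adenocarcinoma: the receptor tyrosine kinases INSR, IGF1R, EGFR, ERBB2, ERBB3 and MET and the insulin adaptors IRS1 and IRS2. They were taken by name from the 60675 genes of the deposited expected-count table, in which each had 1 row, and all 8 were among the 16767 genes that passed the filter on low counts. The 60 libraries form 21 groups. Cells received wortmannin at 10 µM, LY294002 at 10 µM, 1 of 6 herbal water extracts, or vehicle, and were collected after 24 h. The sources of the extracts were Poria cocos, Atractylodis Rhizoma, licorice root (Glycyrrhizae Radix), Panax ginseng, Angelicae Gigantis Radix and Paeoniae Radix, called Poria, Atractylodis, Glycyrrhizae, Ginseng, Angelicae and Paeoniae in the text, each at 500, 100 and 20 µg/mL. The vehicle is 0.1% DMSO in the sample labels and 2% in the text of the series. A group had 3 libraries, except the 3 Paeoniae groups, which had 2. All groups share 1 cell line, and nothing in the labels says whether replicates were separate cultures, so p-values measure the spread between these libraries, which may be technical.

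Receptor tyrosine kinases span the cell membrane. A ligand brings receptor chains together, their cytoplasmic kinases phosphorylate tyrosines, and adaptor proteins bind there and pass the signal on to phosphoinositide 3-kinase (PI3K) and to the RAS and MAPK cascade. INSR binds insulin and IGF2, IGF1R binds IGF1 and IGF2, and both signal through IRS1 and IRS2, which carry the docking sites for PI3K. EGFR binds EGF, TGFA, AREG and EREG. ERBB2 has no known ligand and acts as the partner of the other receptors of its family. ERBB3 has little kinase activity of its own but many docking sites for PI3K, and MET is the receptor for HGF. Wortmannin and LY294002 are unrelated compounds that occupy the ATP site of PI3K. In many cell types, FOXO transcription factors move into the nucleus when PI3K and AKT are inhibited, and INSR, IRS2 and ERBB3 are known among their target genes. FOXO activity was not measured here.

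The promoters of INSR, IRS2 and IGF1R are shown because these were the insulin-pathway genes whose mRNA was higher with wortmannin. Each is the 250 bases before the transcription start in RefSeq on GRCh38.p14, written 5′ to 3′ on the strand of the gene, with the letters of any motif searched in capitals.
INSR chr19:7294415-7294664 (minus strand): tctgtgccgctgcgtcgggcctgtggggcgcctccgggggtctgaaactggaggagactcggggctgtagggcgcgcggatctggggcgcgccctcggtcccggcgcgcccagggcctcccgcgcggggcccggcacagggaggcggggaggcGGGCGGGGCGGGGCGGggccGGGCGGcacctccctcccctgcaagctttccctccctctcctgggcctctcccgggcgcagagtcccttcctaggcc
IRS2 chr13:109786584-109786833 (minus strand): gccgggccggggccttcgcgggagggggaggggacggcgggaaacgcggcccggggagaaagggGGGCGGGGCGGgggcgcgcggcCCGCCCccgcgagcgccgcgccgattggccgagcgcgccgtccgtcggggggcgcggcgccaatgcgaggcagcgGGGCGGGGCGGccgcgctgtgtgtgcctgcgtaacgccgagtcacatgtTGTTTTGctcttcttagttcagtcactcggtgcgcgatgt
IGF1R chr15:98648289-98648538 (plus strand): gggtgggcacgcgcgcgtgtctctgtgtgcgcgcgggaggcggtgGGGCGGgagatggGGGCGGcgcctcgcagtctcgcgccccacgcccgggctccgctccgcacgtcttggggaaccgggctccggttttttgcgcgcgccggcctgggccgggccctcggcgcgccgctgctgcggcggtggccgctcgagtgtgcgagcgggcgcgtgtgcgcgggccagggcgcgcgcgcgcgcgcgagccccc
The 5 motifs searched on both strands were the FOXO site GTAAACA, the insulin response core CAAAACA, the GC box GGGCGG bound by SP1, the E-box CACGTG and TGANTCA. The last is a loose form of the AP-1 site, with any base in the middle. The 5 motifs were present in 2.98%, 4.34%, 42.31%, 6.49% and 6.6% of 27303 RefSeq promoters of that length, in that order. The table had an entry for 7 of the 8 genes, all but ERBB3. EGFR had 2 starts in it, and its counts and GC content refer to the most upstream. IRS2 had 1 match to the insulin response core, starting 40 bases before the start, read as TGTTTTG on its own strand, and the other 6 genes had none. GC boxes were present in 6 of the 7 promoters, with 5 in IRS2, 4 each in INSR and IRS1 and 2 each in IGF1R, EGFR and MET. Some overlap by 1 base, such as the run in INSR. ERBB2 had 1 listed start, and its window (chr17:39687844-39688093) includes position 39687914, where the gene begins in GENCODE 29. Starts further into the gene were not searched. In this window ERBB2 had no GC box and 1 match to the loose AP-1 form, with the letters TGATTCA. The FOXO site and the E-box matched in none of the 7. GC content was 65.6% in ERBB2, 68.4% in MET, 73.6% in EGFR, 76.4% in IRS2, 78.4% in INSR, 80.8% in IRS1 and 81.2% in IGF1R, against a median of 58.0% over all promoters. A match describes letters in this window and shows no binding.

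Library totals ran from 20431980 to 35477712 expected counts, which gave INSR, the gene with the fewest, between 404 and 792 counts per library. Of 12 markers listed for colorectal epithelium, 7 averaged between 177.7 CPM (VIL1) and 6656 CPM (KRT8; counts scaled to a common library size, with TMM factors), with EPCAM at 558.4 CPM. The other 5 were low: CEACAM5 averaged 7.8, CDX2 5.07, CDH17 4.59, GPA33 3.41 and CDX1 0.864 CPM. No gene of the 14 listed for fibroblasts, leukocytes or endothelium averaged above the 3.59 CPM of CD14, a level within the range of those 5, and PTPRC, COL3A1 and CDH5 were near 0. The first number of the sample codes is 1 for inhibitor and vehicle libraries, 2 where Atractylodis or Poria was used, 3 where Ginseng or Glycyrrhizae was, and 4 where Paeoniae or Angelicae was. What it stands for is not stated. A comparison of an extract with vehicle is therefore also one between these code sets, while 500 against 20 µg/mL stays within a set. Replicate 3 of LY294002 stood apart from the other LY294002 libraries for EGFR, MET and IRS1, and results that rest on it are given with and without it. For EGFR, replicate 1 was the highest library in all 18 extract groups, and replicate 2 in all 3 groups of code set 1. For MET, replicate 1 was the highest in 15 of 18 extract groups and replicate 2 in the 3 groups of code set 1, while replicate 1 was never the highest library for IRS2 in the 21 groups.

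In vehicle, MET had the highest level per length of the 8 genes, 84.9 ± 1.69 CPM per kb of exon (SD, n = 3). ERBB3 followed with 25.6 ± 1.07 CPM per kb. EGFR at 17.5 ± 1.08, ERBB2 at 17.1 ± 0.482 and IRS1 at 16.8 ± 0.264 CPM per kb did not differ beyond their spread. IGF1R stood at 8.08 ± 0.194, IRS2 at 3.79 ± 0.207 and INSR, the lowest, at 1.91 ± 0.0858 CPM per kb. With the longest transcript as the length in place of all exons, ERBB3 had 39.1 CPM per kb, ERBB2 35.7, EGFR 22.4 and IRS1 17.3. The order and the distances of these neighbours therefore depend on the length used. The genes lie at these positions of GRCh38 in GENCODE 29: INSR on chromosome 19 from 7112255 to 7294034, IGF1R on 15 from 98648539 to 98964530, IRS1 on 2 from 226731317 to 226799759 and IRS2 on 13 from 109752698 to 109786568. EGFR lies on chromosome 7 from 55019021 to 55211628, ERBB2 on 17 from 39687914 to 39730426, ERBB3 on 12 from 56076799 to 56103505 and MET on 7 from 116672390 to 116798386. ERBB2 shares exon positions with PGAP3 and MIEN1 on the opposite strand, which averaged 639.1 and 1369 counts. ERBB3 shares them with AC034102.2 on its own strand, which averaged 68.2 counts. Whether the counting used strand is not stated, so reads of such pairs may be divided uncertainly.

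With wortmannin, 5 of the 8 mRNAs rose and none fell: INSR and IRS2 by about the same fold, then IGF1R, ERBB2 and ERBB3. IRS1, EGFR and MET did not pass the test. The words rose, fell and called are used for an adjusted p under 0.05 in edgeR's quasi-likelihood test, with Benjamini-Hochberg adjustment over all 16767 genes. At that threshold wortmannin changed 13.7% of all genes tested, 6.26% higher and 7.46% lower. The median log2 fold change was 0.19 over the 8 genes and 0 over all genes. In RNA of whole cultures, a change in RNA per cell and a change in the share of cells that express a gene cannot be told apart. Of all genes called, 45.7% were higher, against 65.3% with library totals in place of TMM and 56.4% with only the 6 libraries compared in the model.

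Among the receptors of insulin and IGF, INSR had 29.9, 27.1 and 26.1 CPM in wortmannin libraries and 18.9, 20.3 and 20.6 CPM in vehicle libraries. All wortmannin values lay above all vehicle values. The log2 fold change was 0.48 ± 0.07 (SE), a 1.39-fold difference with an adjusted p of 9.69e-07. IGF1R had 136.1, 138 and 131.6 CPM with wortmannin and 110.3, 112 and 115.6 CPM with vehicle, again without overlap. The log2 fold change was 0.27 ± 0.06 (adjusted p = 0.000644). Genes called here were called on these same libraries. The share of all genes without overlap was not computed, so separate ranges add no support, here or in the comparisons below. The adaptors differed from each other. IRS2 had 40.6, 41.5 and 43.6 CPM with wortmannin and 30.4, 29.5 and 32.8 CPM with vehicle. These ranges were apart, with a log2 fold change of 0.44 ± 0.08 (adjusted p = 0.000126). IRS1, which is encoded by a separate gene and shares much of its function, had 153.3, 171.7 and 162.3 CPM with wortmannin, around the 165.4, 170.5 and 166.8 CPM with vehicle. Its log2 fold change was -0.04, with a 95% interval from -0.17 to 0.08 (adjusted p = 0.707).

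In the EGFR family, ERBB2 had 202.1, 196.9 and 206.4 CPM with wortmannin and 171.5, 175.5 and 181.4 CPM with vehicle. The groups did not overlap, and the log2 fold change was 0.20 ± 0.04 (adjusted p = 0.000699). ERBB3 had 272.1, 263.3 and 255.1 CPM with wortmannin and 227.9, 223.8 and 242.3 CPM with vehicle. All wortmannin libraries were higher, with a log2 fold change of 0.19 ± 0.05 (adjusted p = 0.00761). That call was lost without replicate 1 of wortmannin (log2 0.16, adjusted p = 0.0554) and without replicate 2 of vehicle (0.17, adjusted p = 0.0549). EGFR itself had 207, 235 and 194.5 CPM with wortmannin, which overlapped the 215.2, 234.6 and 208.6 CPM with vehicle. The estimate was -0.05 on the log2 scale, with a wide interval from -0.32 to 0.22 (adjusted p = 0.875). MET had 530.2, 573.3 and 540.3 CPM with wortmannin and 599, 608.9 and 585.2 CPM with vehicle. Every wortmannin library was lower, but the log2 fold change of -0.13 ± 0.08 did not pass the test (adjusted p = 0.317).

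**Figure D1:**
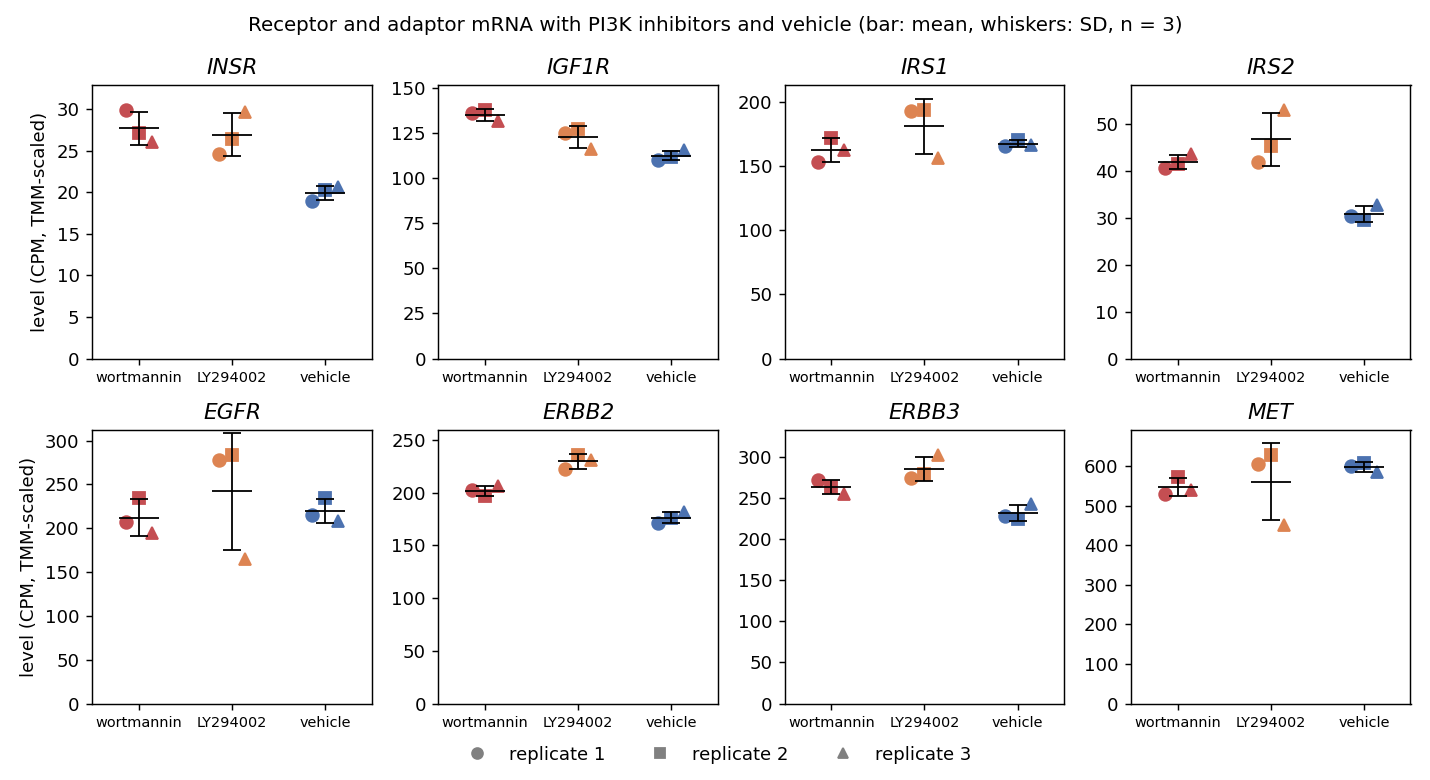
Level of each gene in CPM (y axis, from 0, a scale of its own in each panel) in the 3 libraries each of wortmannin, LY294002 and vehicle; points are libraries with their shape by replicate number, bars are means and whiskers the SD. INSR, IGF1R, IRS2, ERBB2 and ERBB3 were above every vehicle library in both inhibitor groups. For IGF1R the margin with LY294002 was narrow (lowest 116 CPM, against a highest of 115.6 CPM in vehicle). The share of all genes without overlap was not computed, so the separation adds no support. Replicate 3 of LY294002 was lowest for EGFR (164.5 CPM) and MET (450.1 CPM).

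With LY294002, 4 of the 8 mRNAs rose and none fell: IRS2, INSR, ERBB2 and ERBB3. LY294002 changed 39.2% of all genes tested, 18.7% higher and 20.5% lower. The test took changes in either direction, so the 4 of 8 are read against that 39.2% and are not far from it. The median log2 fold change was 0.22 over the 8 genes and 0.01 over all genes. Of all genes called, 47.7% were higher, against 58% with library totals in place of TMM. The comparison shares the vehicle libraries with that of wortmannin, so the 2 are not independent.

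IRS2 had 42, 45.4 and 53.1 CPM in LY294002 libraries, against the 30.4, 29.5 and 32.8 CPM in vehicle libraries. Its log2 fold change of 0.60 ± 0.08 was the largest of the 8 (1.52-fold, adjusted p = 5.68e-08). INSR had 24.6, 26.5 and 29.7 CPM with LY294002 and 18.9, 20.3 and 20.6 CPM with vehicle, a log2 fold change of 0.43 ± 0.07 (adjusted p = 9.82e-07). ERBB2 had 221.9, 235.6 and 231.2 CPM with LY294002, all well above the 171.5, 175.5 and 181.4 CPM with vehicle. They gave a log2 fold change of 0.38 ± 0.04 (adjusted p = 2.28e-10). ERBB3 had 274.5, 279.1 and 302 CPM with LY294002 and 227.9, 223.8 and 242.3 CPM with vehicle, a log2 fold change of 0.30 ± 0.05 (adjusted p = 3.3e-06). None of the 4 ranges overlapped that of vehicle, but these genes had been called on the same libraries. The share of all genes without overlap was not computed, so this adds no support. IGF1R had 124.9, 127.6 and 116 CPM with LY294002, just above the 110.3, 112 and 115.6 CPM with vehicle. Its log2 fold change of 0.13 ± 0.06 did not pass the test (adjusted p = 0.0704).

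The 3 remaining genes were divided by 1 library. EGFR had 277.8, 283.6 and 164.5 CPM with LY294002, against 215.2, 234.6 and 208.6 CPM with vehicle, so 2 libraries lay above and replicate 3 below every vehicle library. IRS1 had 193.2, 194 and 156.5 CPM with LY294002 and 165.4, 170.5 and 166.8 CPM with vehicle, with the same split. MET had 603.9, 628 and 450.1 CPM with LY294002 and 599, 608.9 and 585.2 CPM with vehicle. With all 3 libraries, the log2 fold changes were 0.14 for EGFR (adjusted p = 0.447), 0.11 for IRS1 (adjusted p = 0.143) and -0.09 for MET (adjusted p = 0.368). Without replicate 3 of LY294002, EGFR was at 0.35 (adjusted p = 0.03), IRS1 at 0.21 (adjusted p = 0.00544), IGF1R at 0.17 (adjusted p = 0.0334) and MET at 0.04 (adjusted p = 0.696). In that fit 7 of the 8 genes were called higher, where 5373 of all genes were called, 46% of them higher. With library totals in place of TMM, IGF1R (0.17, adjusted p = 0.00915) and IRS1 (0.16, adjusted p = 0.0206) were called higher with all 3 libraries. Replicate 3 had 26244801 expected counts, between the totals of the other LY294002 libraries. For INSR, IRS2 and ERBB3, this library was the highest of the LY294002 group.

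Set directly against each other at 10 µM, wortmannin and LY294002 differed in 1 of the 8 genes, ERBB2, where 22.2% of all genes tested differed (12.7% higher and 9.49% lower with wortmannin). ERBB2 averaged 201.8 ± 4.74 CPM with wortmannin and 229.6 ± 7.02 CPM with LY294002 (SD, n = 3 each). It was lower in all 3 wortmannin libraries, with a log2 fold change of -0.19 ± 0.04 (adjusted p = 0.000658). The adjusted p was 0.0545 when only these 6 libraries were in the model. For INSR the log2 difference was 0.04, with a 95% interval from -0.09 to 0.17 (adjusted p = 0.7), and for MET -0.03, from -0.19 to 0.12 (adjusted p = 0.81). IGF1R was at 0.14 (adjusted p = 0.0656), IRS1 at -0.16 (adjusted p = 0.0578), ERBB3 at -0.11 (adjusted p = 0.099) and IRS2 at -0.16 (adjusted p = 0.154). EGFR was at -0.19, with an interval from -0.46 to 0.08 (adjusted p = 0.357). Without replicate 3 of LY294002, IRS1 (-0.25, adjusted p = 0.00164) and EGFR (-0.40, adjusted p = 0.0237) were called lower with wortmannin too. IRS1 was also called without replicate 2 of wortmannin (-0.20, adjusted p = 0.0345) and with library totals (adjusted p = 0.027). IGF1R was called higher with wortmannin without replicate 2 of LY294002 (0.17, adjusted p = 0.0451) and by DESeq2 (adjusted p = 0.0441), and EGFR lower with no filter on low counts (adjusted p = 0.00998). The share of all genes called with replicate number as a block in the model is not given here. In that fit 5 of the 8 were called. Beside ERBB2 these were IGF1R (0.139, adjusted p = 0.0421), IRS1 (-0.155, adjusted p = 0.0255), IRS2 (-0.157, adjusted p = 0.0232) and ERBB3 (-0.112, adjusted p = 0.0302).

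With the extracts, INSR and IRS2 stayed near their vehicle levels. Over the 18 extract groups, the group mean of INSR stayed between 18.4 and 20.8 CPM, while it was 27.7 CPM with wortmannin and 26.9 CPM with LY294002. IRS2 stayed between 29.1 and 32.7 CPM in extract groups, with 41.9 and 46.8 CPM in the 2 inhibitor groups. ERBB3 means ran from 216.6 to 246.2 CPM and IGF1R means from 108.3 to 114.3 CPM over the extracts. No extract library reached the lowest inhibitor library for INSR or IRS2: the highest extract library had 21.7 CPM of INSR and 35.1 CPM of IRS2.

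**Figure D2:**
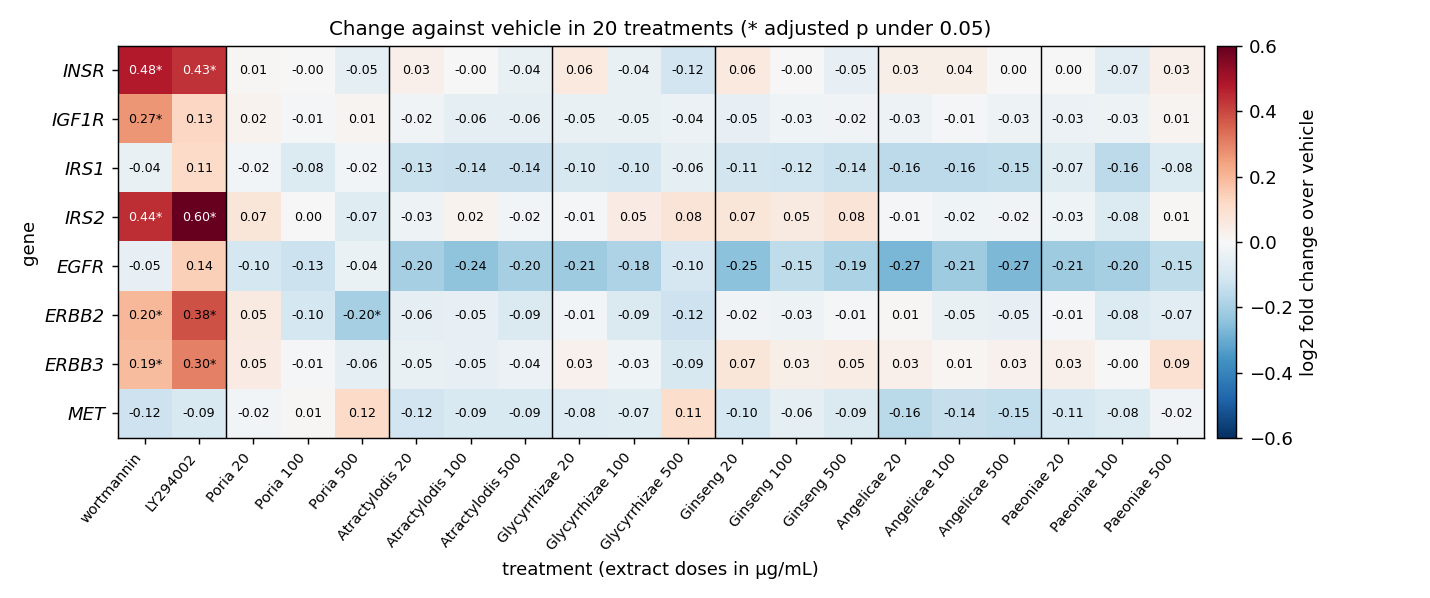
Log2 fold change over vehicle (colour and number, red higher and blue lower) of the 8 genes (rows) in 2 inhibitor and 18 extract groups (columns, doses in µg/mL); stars mark an adjusted p under 0.05. Stars stand in the 2 inhibitor columns and once among the extracts, for ERBB2 with Poria at 500 µg/mL.

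At 500 µg/mL against vehicle, 1 gene of the 8 was called in 1 of 6 extracts: ERBB2 fell with Poria. Poria at 500 µg/mL changed 7.49% of all genes tested, 4.6% higher and 2.89% lower. These 1256 genes became 545 without replicate 3 of vehicle, 754 without replicate 2 of vehicle, 777 without replicate 1 of Poria and 239 with only the 6 libraries compared in the model. ERBB2 had 154, 154.2 and 152.6 CPM in those Poria libraries and 171.5, 175.5 and 181.4 CPM in vehicle libraries. The Poria values were the lowest of all 60 libraries and did not overlap vehicle. The log2 fold change was -0.20 ± 0.04 (adjusted p = 0.00166), and the adjusted p was 0.0606 when only the 6 libraries compared were in the model. The other 5 extracts had no called gene among the 8 at 500 µg/mL. Over all genes tested, Glycyrrhizae changed 6.91%, Ginseng 0.352%, Atractylodis 0.25%, Angelicae 0.161% and Paeoniae 0.161%. The 1158 genes called for Glycyrrhizae became 552 without replicate 3 of vehicle, 746 without replicate 2 of vehicle, 716 without replicate 1 of Glycyrrhizae and 711 with only the libraries compared. At an unadjusted p under 0.05, 2 of the 8 genes passed for Atractylodis, 1 each for Glycyrrhizae, Ginseng and Angelicae and 0 for Paeoniae. At that threshold 14.7% of all genes passed for Atractylodis, 20.3% for Glycyrrhizae, 15.6% for Ginseng, 16% for Angelicae and 11.3% for Paeoniae.

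The mean of ERBB2 was lower at each higher dose of Poria, a comparison within code set 2 except for vehicle. ERBB2 averaged 176.1 ± 4.97 CPM in vehicle, 182.5 ± 7.42 CPM at 20, 163.7 ± 7.57 CPM at 100 and 153.6 ± 0.857 CPM at 500 µg/mL (SD, n = 3 each). ERBB2 had 154, 154.2 and 152.6 CPM at 500 µg/mL and 174.1, 188.1 and 185.4 CPM at 20 µg/mL. The highest value at 500 µg/mL lay well below the lowest at 20 µg/mL. The log2 fold change of 500 over 20 was -0.25 ± 0.04 (adjusted p = 8.57e-05), and the call held with only those 6 libraries in the model (adjusted p = 0.0307). The other 7 genes were not called in that comparison, in which 5.51% of all genes tested changed (3.21% higher and 2.3% lower). For MET, all 3 libraries at 500 µg/mL (627.7, 653.1 and 663.6 CPM) lay above the 610.1, 554.7 and 606.2 CPM at 20 µg/mL. Its log2 fold change of 0.14 ± 0.08 did not pass the test (adjusted p = 0.367). The difference between the dose effects of Poria and Atractylodis on ERBB2 was -0.22, with a 95% interval from -0.33 to -0.10 and an adjusted p of 0.119, where 0.394% of all genes tested were called. That difference was called with library totals or with DESeq2 (lowest adjusted p = 0.0441).

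**Figure D3:**
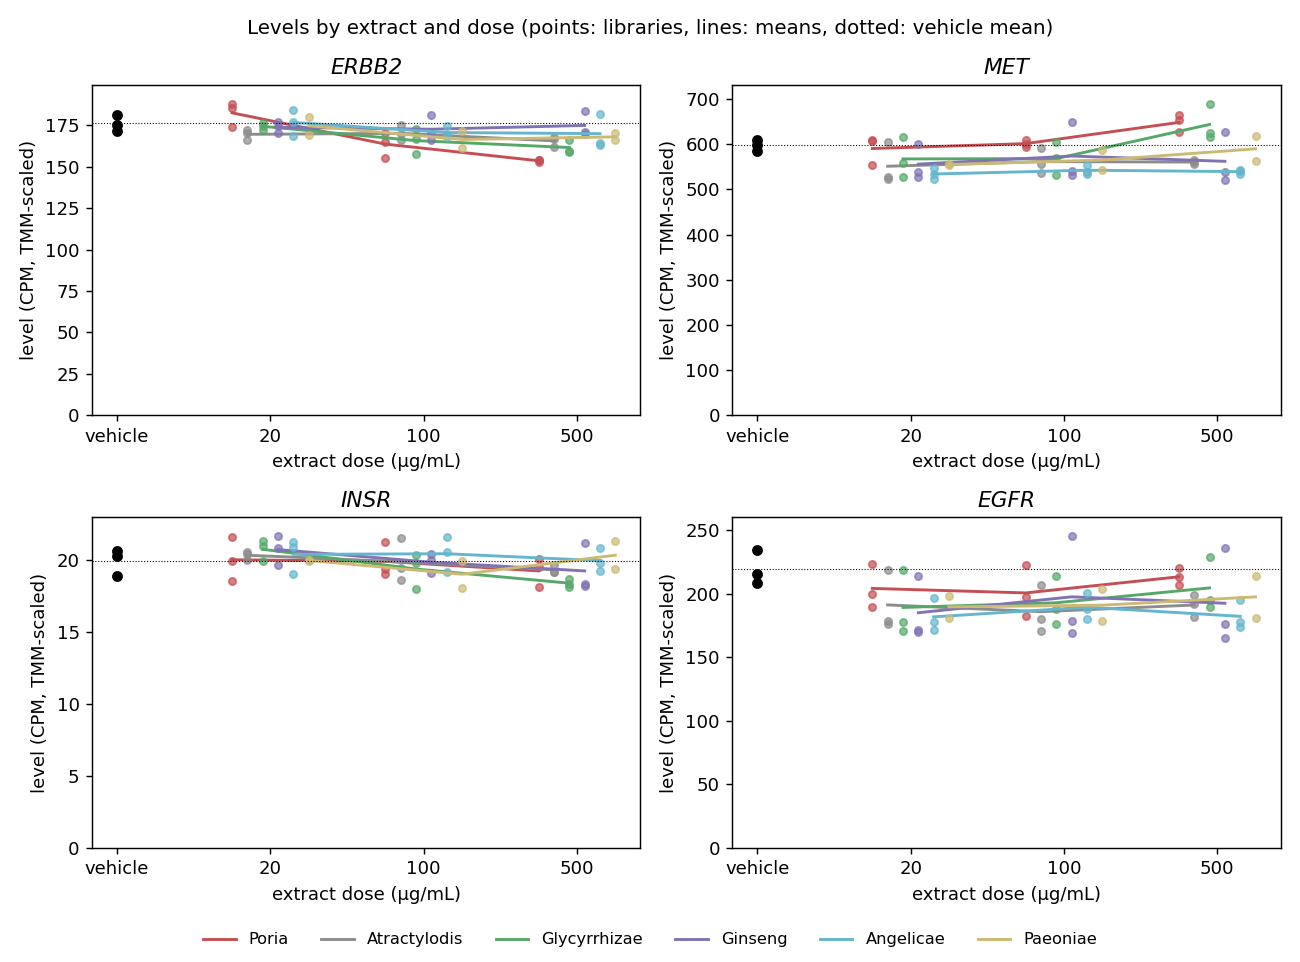
Levels of ERBB2, MET, INSR and EGFR in CPM (y axis, from 0) by extract dose (x axis, vehicle at the left, then 20, 100 and 500 µg/mL); points are libraries, coloured lines join the means of an extract and the dotted line is the vehicle mean. The Poria line for ERBB2 ends at 153.6 CPM, and the Poria and Glycyrrhizae lines for MET end at 648.2 and 643.5 CPM.

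Glycyrrhizae at 500 µg/mL gave values in the same directions as Poria for ERBB2 and MET, without a call in the main edgeR fit. ERBB2 had 158.8, 166.4 and 159.6 CPM with Glycyrrhizae at 500 µg/mL, below the 171.5, 175.5 and 181.4 CPM with vehicle. The log2 fold change was -0.12 ± 0.04 (adjusted p = 0.0628). It was called by DESeq2 (adjusted p = 0.047) and by edgeR with replicate number as a block (adjusted p = 0.0384). MET had 689.7, 615.9 and 625.1 CPM at 500 µg/mL and 616, 557.9 and 528 CPM at 20 µg/mL. The lowest value at 500 µg/mL lay just under the highest at 20 µg/mL, and the log2 fold change of 0.18 ± 0.08 did not pass the test (adjusted p = 0.208). INSR had 18.4, 18.7 and 18.1 CPM at 500 µg/mL and 19.9, 21.3 and 21 CPM at 20 µg/mL, a log2 fold change of -0.17 ± 0.07 (adjusted p = 0.167). ERBB3 was at -0.12 ± 0.05 in the same comparison (adjusted p = 0.198). With Glycyrrhizae at 500 against 20 µg/mL, 0 of the 8 genes were called in the main edgeR fit and 0 by DESeq2, where that fit called 3.85% of all genes tested. In edgeR, ERBB2 was called with library totals (-0.15, adjusted p = 0.029) and MET with no filter on low counts (0.18, adjusted p = 0.0118). At an unadjusted p under 0.05 in edgeR, 4 of the 8 passed, as did 16.3% of all genes. The difference from Ginseng in this dose effect was called for none of the 8 (0.0477% of all genes tested), and that between Angelicae and Paeoniae for none (0% of all genes). DESeq2 called none of the 8 in either. At an unadjusted p under 0.05, 1 and 0 of the 8 passed, where 6.24% and 2.45% of all genes did.

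For the 4 other extracts, 500 against 20 µg/mL called none of the 8 genes by edgeR or DESeq2, and none passed at an unadjusted p under 0.05 in edgeR. Over all genes tested, Atractylodis and Ginseng changed 0%, Angelicae 0.0179% and Paeoniae 0.0358%; at the unadjusted threshold the shares were 5.11%, 4.01%, 2.98% and 3.36% in that order. At 100 µg/mL against vehicle, none of the 8 was called in any extract by edgeR or DESeq2, with 0.0417% of all genes called for Poria, 0.364% for Atractylodis, 0.34% for Glycyrrhizae, 0% for Ginseng, 0.00596% for Angelicae and 0.0477% for Paeoniae. At 20 µg/mL the shares were 0% for Poria, Ginseng and Paeoniae, 0.137% for Atractylodis, 0.37% for Glycyrrhizae and 0.173% for Angelicae, again with none of the 8 by either tool. At an unadjusted p under 0.05, 0 or 1 of the 8 passed in each extract at 100 µg/mL, where 8.21% of all genes did for Poria, 13.9% for Atractylodis, 15.4% for Glycyrrhizae, 10.6% for Ginseng, 12.1% for Angelicae and 13.7% for Paeoniae. At 20 µg/mL 0 to 2 of the 8 passed at that threshold, where the shares were 4.97% for Poria, 11.9% for Atractylodis, 18.2% for Glycyrrhizae, 15.3% for Ginseng, 18.3% for Angelicae and 6.94% for Paeoniae.

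EGFR and IRS1 were below vehicle in the means of all 18 extract groups, and neither was called at 500 against 20 µg/mL in any extract. Neither was called against vehicle in the main edgeR fit. All 18 groups are set against the same 3 vehicle libraries, so these differences are not independent. The share of all genes on 1 side of vehicle in all 18 groups was not computed. With Glycyrrhizae, EGFR averaged 189.2 CPM at 20, 192.8 at 100 and 204.5 CPM at 500 µg/mL. EGFR had a median of 189.5 CPM over the 51 extract libraries, from 165.3 to 245.3 CPM, and 208.6 to 234.6 CPM in vehicle. Of the 51, 39 were below every vehicle library. IRS1 had a median of 153.9 CPM in extract libraries, from 143 to 169.2 CPM, and 165.4 to 170.5 CPM in vehicle, with 42 of 51 below every vehicle library. The lowest log2 fold changes of EGFR were -0.27 with Angelicae at 20 µg/mL (adjusted p = 0.285) and at 500 µg/mL (adjusted p = 0.329). EGFR varied most between replicates of the 8 genes, with a median group SD of 9.93% of the mean, against 2.82% for ERBB2. With no filter on low counts, EGFR was called lower in 10 of the 18 extract comparisons with vehicle, with adjusted p as low as 6.13e-05. The share of all genes called without the filter is not given for these. By code set, the median of EGFR was 198.2 CPM in set 2, 183.3 in set 3 and 181.2 in set 4, against 215.2 CPM for vehicle. For IRS1 it was 159, 154.3 and 152.2 CPM in those sets, against 166.8 CPM for vehicle. Extract, code set and any difference in solvent cannot be told apart here.

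Other genes of the pathway were read from 6 lists of 124 genes, 84 of them tested. With wortmannin 18 of the 84 were called, or 21.4%, against 13.7% of all genes. With LY294002 35 were called, or 41.7%, against 39.2% of all genes, so the counts below stand near the background for LY294002. Over all genes 6.26% were higher and 7.46% lower with wortmannin, and 18.7% were higher and 20.5% lower with LY294002. Among 8 tested ligand genes, 1 rose and 3 fell with wortmannin, and 0 rose and 4 fell with LY294002. EREG, an EGFR and ERBB4 ligand, averaged 59.1 ± 2.3 CPM with wortmannin, 41.4 ± 6.9 CPM with LY294002 and 86.5 ± 7.74 CPM with vehicle (SD, n = 3 each). Its log2 fold changes were -0.55 ± 0.08 with wortmannin (adjusted p = 8.98e-07) and -1.06 ± 0.08 with LY294002 (adjusted p = 3.55e-15). AREG, another EGFR ligand, fell by 0.27 with wortmannin and by 0.65 with LY294002 on the log2 scale. IGF2, a ligand of IGF1R and INSR, averaged 137.9 ± 13.6 CPM with wortmannin, 97.9 ± 6.79 CPM with LY294002 and 96.8 ± 7.42 CPM with vehicle. It rose with wortmannin (log2 0.51 ± 0.07, adjusted p = 1.67e-06) and was higher with wortmannin than with LY294002 (log2 0.49 ± 0.07, adjusted p = 1.31e-06). No count of INS, IGF1, NRG1 or HGF was found in any library, where 3 counts would be 0.147 CPM in the smallest library.

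Of 25 other receptor tyrosine kinases tested, 2 rose and 0 fell with wortmannin, and 4 rose and 5 fell with LY294002. Beside this and the list counts that follow, 6.26% of all genes were higher and 7.46% lower with wortmannin. With LY294002 these shares were 18.7% and 20.5%. PTK7, a receptor with an inactive kinase, rose with both, to 84 ± 2.48 CPM with wortmannin and 90.9 ± 1.11 CPM with LY294002, against 58.5 ± 3.48 CPM with vehicle. TYRO3 was at 16.6 ± 0.567 CPM with wortmannin and 10.7 ± 0.036 CPM with LY294002 and differed between them (log2 0.63 ± 0.07, adjusted p = 5.34e-09). Of 18 adaptors and proximal effectors, 0 rose and 3 fell with wortmannin, and 1 rose and 5 fell with LY294002. The 3 were the PI3K regulatory subunits PIK3R3 (log2 -0.22) and PIK3R1 (-0.21) and the phosphatase PTPN11 (-0.13). Of 23 negative regulators, 3 rose and 2 fell with wortmannin, and 4 rose and 7 fell with LY294002. ERRFI1, an inhibitor of EGFR, fell by 0.16 with wortmannin and by 0.47 with LY294002 on the log2 scale. With library totals, ERRFI1 was no longer called with wortmannin (adjusted p = 0.0509), and neither were TRIB3 and PTPN11. Of 3 IGF-binding proteins, IGFBP6 rose (0.54) and IGFBP2 fell (-0.25) with wortmannin, and IGFBP2 fell with LY294002 (-0.21). Of 7 processing and shedding genes, 0 rose and 2 fell with wortmannin, and 2 rose and 2 fell with LY294002. The median log2 fold change of the lists with wortmannin ran from -0.21 for ligands to 0.11 for the other receptors.

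**Figure D4:**
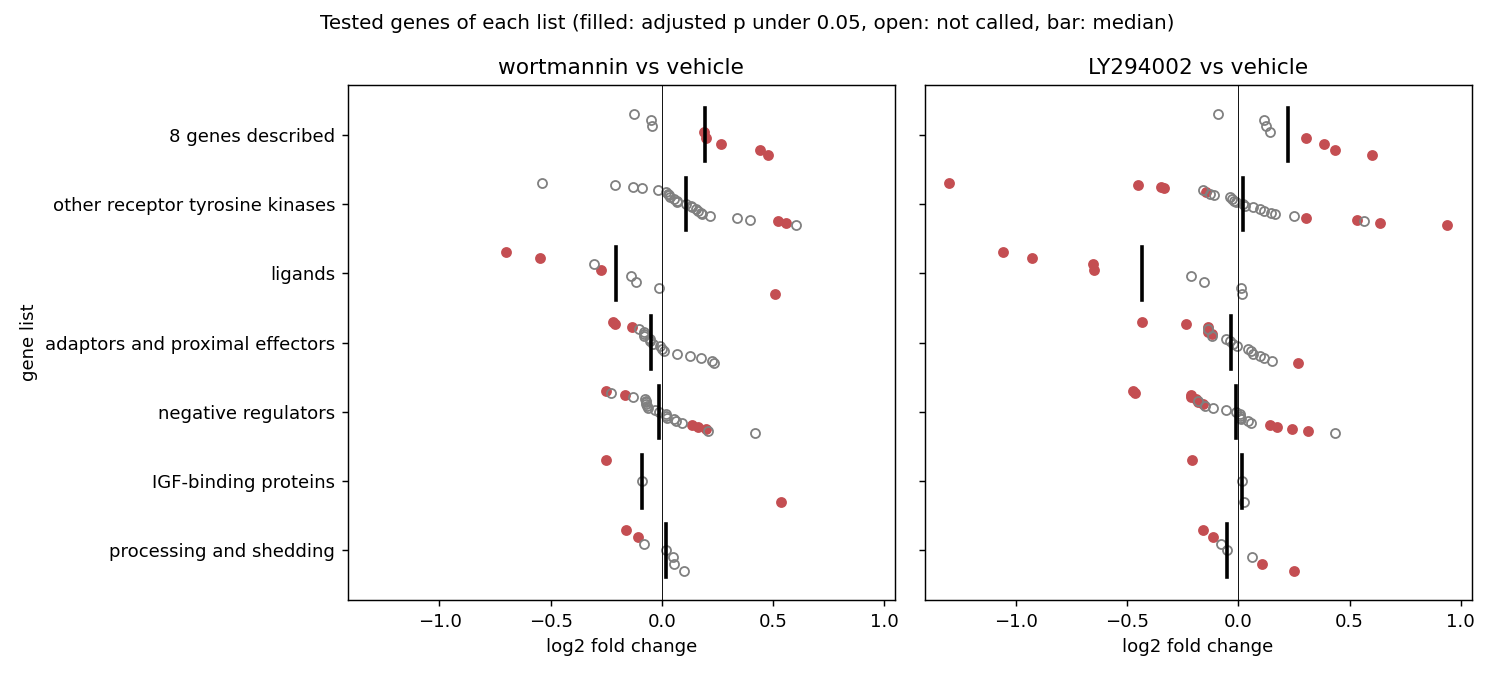
Log2 fold change over vehicle (x axis) of the tested genes of each list (rows) with wortmannin (left) and LY294002 (right); each circle is a gene, filled where the adjusted p was under 0.05, and the black bar is the median of the list. The top row holds the 8 genes described, with medians of 0.19 and 0.22, and the ligand row has the lowest medians, -0.21 and -0.43.

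Alongside the fall of ERBB2 with Poria at 500 µg/mL, 9 of the 84 list genes were called, or 10.7%, against 7.49% of all genes. ERRFI1 averaged 101.9 ± 1.5 CPM with Poria and 79.5 ± 1.83 CPM with vehicle (log2 0.36 ± 0.05, adjusted p = 2.54e-07). It was also higher at 500 than at 20 µg/mL (0.34 ± 0.05, adjusted p = 1.24e-06). CBLB, a ubiquitin ligase that acts on activated receptors, fell by 0.55 on the log2 scale and TRIB3, a pseudokinase that binds AKT, rose by 0.37. TGFA, an EGFR ligand, was at 84.6 ± 3.56 CPM with Poria and 76.9 ± 2.5 CPM with vehicle and was called higher (0.14, adjusted p = 0.0268). Of the receptors, EPHA2 was called higher (0.22) and ROR1 lower (-0.30). At 500 against 20 µg/mL, EPHA2 was not called (0.11, adjusted p = 0.254), while ROR1, CBLB, TRIB3 and TGFA were called in the same directions. ROR1 was also lower with Glycyrrhizae at 500 µg/mL (-0.29, adjusted p = 0.00329), with which IGF2 (-0.33) and SPRY4 (-0.26) fell and IGFBP6 rose (0.35). With Ginseng at 500 µg/mL, SPRY4 was the only gene of the 84 that was called (-0.27, adjusted p = 0.026). With Atractylodis, Angelicae and Paeoniae at that dose none of the 84 was called.

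Over the 21 group means of log2 CPM, the genes with the pattern most like a member were named by their Pearson correlation, as a description. For ERBB2 these were MMP24OS (r = 0.975), BMF (0.974) and PLEKHB1 (0.97), and their r stayed at 0.873 to 0.924 over the 19 groups without the inhibitors. For MET they were MSN (0.936), PPP2R2A (0.914) and CD55 (0.9), with r of 0.925 to 0.937 over those 19 groups. IRS1 was most like STK10 (0.952), EPS8 (0.934) and EGFR (0.926), and EGFR most like ZMIZ1 (0.95), ASAP2 (0.947) and GAREM1 (0.938). For ERBB3 they were PCMTD2 (0.955), IDUA (0.952) and PCMTD1 (0.949). For INSR, TMC4 (0.97), COL18A1 (0.959) and BACE2 (0.954) were most alike, but r was 0.516 to 0.675 without the inhibitor groups. For IRS2, LYZ (0.964), FAM114A1 (0.955) and FBXL16 (0.955) had r of 0.502 to 0.688 without them, and for IGF1R, GPX3 (0.94), LIMS2 (0.935) and CHPF (0.921) had 0.0962 to 0.685. The groups share vehicle, code sets and scaling, so these values carry no test.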

How the data were processed

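Per the labels' protocols, total RNA of HT29 cells with a RIN over 7 went into directional mRNA libraries. The submitters' processing notes name FastQC 0.11.9, Trim Galore 0.6.5, STAR 2.7.3a, RSEM 1.3.3 and the build GRCh38 (hg38); no annotation release or strand setting is stated in the sources used here. Genes in the deposited table carry Ensembl identifiers and expected counts from RSEM; no normalisation by the authors is seen in it, and 24.22% of values above 0 are not whole. Of 273 columns, 60 were used and 213 left out. Symbols came from a gene-name table and GENCODE 29.

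After rounding, edgeR 4.0.16 was used to filter (filterByExpr, 10 counts and 15 in total at least) and to scale by TMM. A quasi-likelihood model with a mean per group was fitted to all 60 libraries (39 residual degrees of freedom, common biological coefficient of variation 0.057; R 4.3.3) and tested on simulated data. Benjamini-Hochberg adjustment covered all genes of each of 30 comparisons. SE are those the F statistic implies. Alternatives were other scaling, no filter, a replicate block, only the libraries compared, DESeq2 1.42.0 and leaving out each library. In 57 pairs of replicates the lowest median chi-square was 0.6696, against 0.455 under counting noise, so no pair looked like 1 library deposited again.

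The 8 genes and all lists were chosen with earlier results of these data known. Named list genes are up to 4 called genes per list and comparison with the largest change at a mean of 5 CPM or more; for each of the 8 genes, the 3 most correlated genes are named.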

Additional observations from a re-analysis of the deposited data

How the results depend on the processing

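Of the 9 calls with an inhibitor against vehicle, 8 kept their direction and call under all 12 alternatives run for each, and ERBB3 with wortmannin lost its call without replicate 1 of wortmannin or replicate 2 of vehicle. No called gene among the 8 changed sign under any alternative. The number of the 8 genes called with LY294002 against vehicle ran from 4 to 7 when 1 library was left out, the 7 without replicate 3 of LY294002. For wortmannin against LY294002, the count of 1 became 2 with library totals, 2 with no filter on low counts, 2 with DESeq2, 5 with the replicate block and 0 with only the libraries compared, and ran from 1 to 3 when 1 library was left out. With only the libraries compared it was 0 for Poria at 500 µg/mL against vehicle and 2 over the 12 comparisons at 100 or 20 µg/mL. With no filter it was 8 over those 12, and 1 each for Atractylodis, Ginseng and Angelicae at 500 µg/mL against vehicle, all but 1 of these being EGFR. For Glycyrrhizae it was 1 at 500 µg/mL against vehicle with the replicate block and with DESeq2 (ERBB2), and 1 at 500 against 20 µg/mL with library totals (ERBB2) and with no filter (MET). For the difference between Poria and Atractylodis it was 1 with library totals and with DESeq2. The share of all genes called is not given for each alternative, so these counts are not read against it. The cause of these shifts was not tested.

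Over all genes, calls with only the libraries compared were 1249 against 2300 for wortmannin and 1377 against 3718 for wortmannin against LY294002, fits that have fewer libraries to estimate the spread. Over all genes, replicate numbers did not meet the rule for pairing: in 0 of 27 comparisons was every correlation of same-numbered residuals above 0.1. In 2 of the 23 with 3 pairs, however, every library correlated best with its own number. These 2 were wortmannin against vehicle (r from 0.0387 to 0.108) and Ginseng at 500 against 20 µg/mL (r from 0.0755 to 0.0961). Single genes such as EGFR also had the same number highest in all 18 extract groups. The replicate block changed no other call of the 8 genes. Counting error at the median count was 4.35% for INSR and 3.49% for IRS2, against median group SDs of 5.87% and 6.2%. For MET it was 0.813% against 5.24%. The source of the remaining spread was not tested.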

Other observations

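Among the other receptor tyrosine kinases, EPHA2 had the highest mean level over all libraries, 43 CPM per kb, followed by EPHB4 at 28.3, FGFR4 at 16.4, DDR1 at 15.9 and LMTK2 at 15.1 CPM per kb. MST1R, the receptor most closely related to MET, averaged 11.8 CPM per kb. Among ligands, AREG stood at 23.2, TGFA at 15.4, EREG at 14.4 and IGF2 at 12.7 CPM per kb, while EGF itself averaged 0.254 CPM per kb. Of the IGF-binding proteins, IGFBP4 averaged 62.8 CPM per kb and IGFBP6 38.8 CPM per kb. These genes were chosen by their levels, which are means over all 60 libraries and carry no test.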
